A study of Mus musculus with 32 samples.

Results

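The 10 endothelial genes Cldn5, Ocln, Abcb1a, Abcg2, Slc2a1, Mfsd2a, Slco1a4, Pecam1, Cdh5 and Adgrf5 of the barrier between blood and spinal cord were followed across all 8 groups of mice. They were taken by symbol, as well-known genes of this barrier, and are 10 of the 42524 genes in the count table. Cldn5 and Ocln build tight junctions. Abcb1a and Abcg2 are efflux pumps, and Slc2a1, Mfsd2a and Slco1a4 are carriers. Pecam1, Cdh5 and Adgrf5 are surface proteins of the endothelium. All 10 genes passed the filter on low counts in every comparison, and the smallest count of any of them in any mouse was 182, for Ocln.

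Capillaries of the brain and spinal cord are lined by endothelial cells whose junctions seal the gaps between them, whose pumps return drugs and lipophilic compounds to the blood, and whose carriers bring in glucose, essential lipids and other nutrients. Pericytes and astrocyte endfeet surround these cells, and Wnt and Norrin ligands from neural cells keep the barrier program running. In amyotrophic lateral sclerosis and in SOD1 mutant rodents the barrier of the spinal cord has long been studied, and efflux pumps matter there because they also limit how much of a drug reaches the tissue.

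Bulk RNA sequencing was carried out on spinal cord tissue from 32 mice, with 4 mice in each of 8 groups. SOD1 G93A mice, which carry a mutant human SOD1 transgene at high copy number (B6-Tg(SOD1-G93A)1Gur, on C57BL/6J), were compared with wild type (WT) littermates at 90 and at 155 days of age, and the mice of each genotype and age either were untreated or had OKN-007, a nitrone with antioxidant and anti-inflammatory activity, in their drinking water. The methods place the killing of the younger cohort a few days past the labelled 90 days, near disease onset, and the older age is late in the disease. The transgene is driven by the human SOD1 promoter and so is not limited to 1 cell type, and the study's mice were mostly female. The dose given to the sequenced mice was not stated outright in the sources used here. Their ages are those of the study's cohorts on its higher dose, for which it reports using only females. When treatment began in the sequenced mice of 155 days was not stated either.

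Total counts ran from 19701722 to 30138257 per mouse, with a median of 26658755, so that 3 counts in the smallest library are 0.152 CPM. CPM are counts scaled to a common library total, here with factors from the trimmed mean of M values (TMM). The mouse gene Sod1 was at 282 to 354 CPM in WT and 296 to 404 CPM in G93A mice at 90 days, so its row does not check the genotype, since the transgene is human. The tissue label was borne out by neuron markers, which summed to 4130 to 13500 CPM, and oligodendrocyte markers, which summed to 19900 to 52700 CPM. A weighed piece of cord was taken per mouse, and its place along the cord is not given in the sources used here. Caudal Hox genes, which mark the lower levels of the cord, summed to 86.5 to 170 CPM in the 8 WT mice and to 4.34 to 82.5 CPM in the 8 G93A mice at 155 days, without overlap. At 90 days the same sum ran from 19.3 to 94.9 CPM in WT and from 5.95 to 84.0 CPM in G93A mice. Level of the cord and genotype therefore cannot be told apart at 155 days, and values adjusted for a score of these Hox genes are given after the results of that age.

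Levels differed widely among the 10 genes. To compare genes, CPM were divided by the length of all exons in kilobases. In untreated WT mice at 90 days Slc2a1, the glucose transporter GLUT1, was highest at 52.0 ± 16.1 CPM per kb (SD, n = 4), followed by Cldn5 at 38.3 ± 14.5 CPM per kb. Mfsd2a, which carries lysolipids with docosahexaenoic acid and limits transcytosis, was at 11.4 ± 4.49 CPM per kb. Slco1a4, a carrier of organic anions, was at 8.61 ± 2.22 CPM per kb. The pump Abcb1a, a P-glycoprotein, was at 6.7 ± 0.483 CPM per kb, and Adgrf5, the adhesion receptor GPR116, at 5.75 ± 0.287 CPM per kb. Levels of Pecam1, the CD31 antigen, and Cdh5, VE-cadherin, were alike at 3.54 ± 0.147 and 3.5 ± 0.383 CPM per kb. Ocln was at 2.54 ± 0.133 and Abcg2, the breast cancer resistance protein, at 2.22 ± 0.266 CPM per kb. The ranges over mice did not overlap between Abcb1a and Adgrf5, between Adgrf5 and Pecam1 and between Cdh5 and Ocln, and all other neighbours in this order overlapped. The first 6 places were the same in all 8 groups. Abcg2 was last in 6 groups and moved to place 8 in both G93A groups at 155 days, where Ocln was last.

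**Figure D1:**
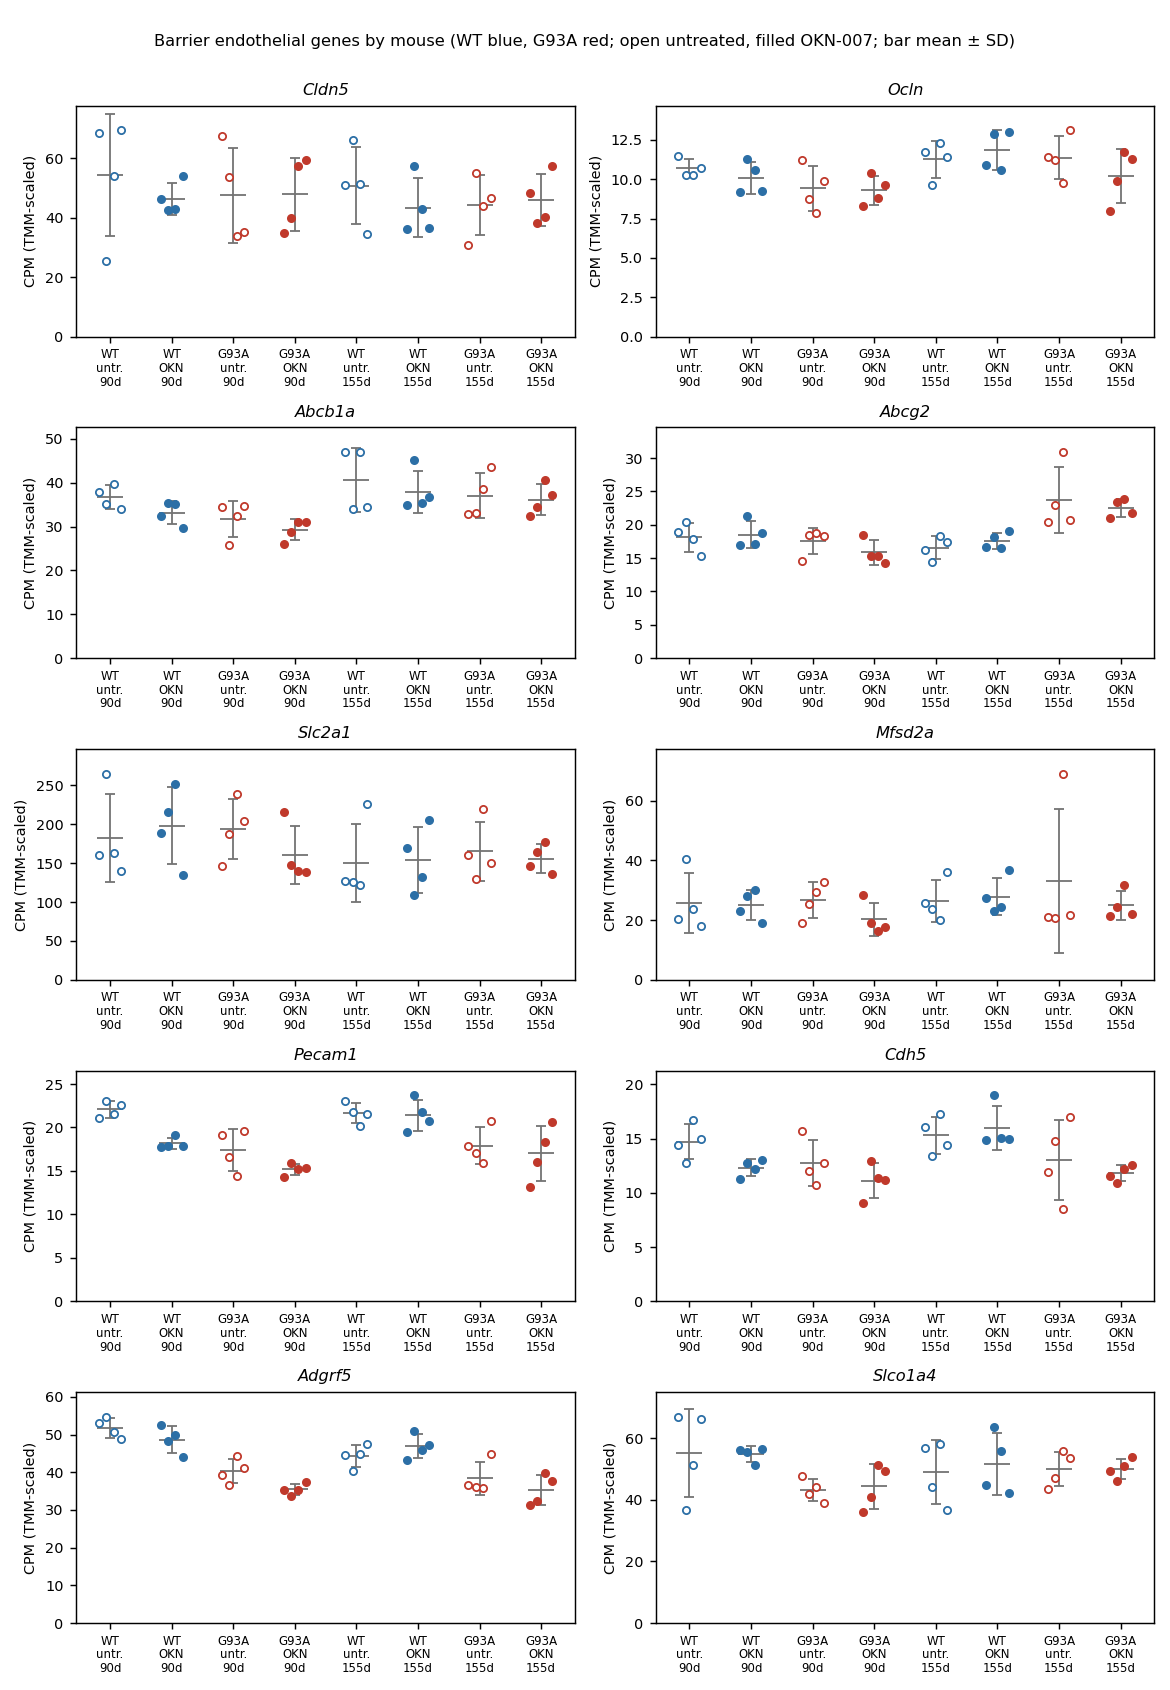
Level of each of the 10 genes in every mouse (TMM-scaled CPM on a linear axis from 0; 4 mice per group, bars give the mean and SD), with untreated mice as open and OKN-007 mice as filled circles. Abcg2 sits between 20.4 and 30.9 CPM in all 8 G93A mice at 155 days and at or below 19.0 CPM in the 8 WT mice of that age, and Adgrf5 is lower in G93A than in WT mice at 90 days.

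At 90 days, near disease onset, the junction, carrier and surface genes were compared between G93A and WT mice to ask whether the barrier program had moved before the late stage. Adgrf5, which is strongly expressed on endothelial cells, was the gene with the smallest p of all 18899 genes tested when both treatments were averaged. Its level was 53.0, 54.7, 50.7 and 48.8 CPM in untreated WT mice and 39.4, 36.7, 44.4 and 41.2 CPM in untreated G93A mice. In OKN-007 mice it was 52.5, 48.2, 49.8 and 44.0 CPM in WT and 35.3, 33.8, 35.3 and 37.5 CPM in G93A. The G93A mice were below the WT mice of the same treatment without overlap in both arms, which used different mice, and over the pooled 8 against 8 only the highest G93A mouse passed the lowest WT mouse. Averaged over treatments, Adgrf5 fell to 0.756 times the WT level (95% interval 0.702 to 0.815; log2 fold change -0.40, SE 0.051, adjusted p = 0.00443, edgeR quasi-likelihood test with Benjamini-Hochberg adjustment over all genes). It was 1 of 5 genes called in that comparison, which is 0.0265% of genes tested. The other 4 were Ccn5, Lgals3 and Thbs2, which rose, and the pseudogene Gm13340, which fell.

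Taken arm by arm, Adgrf5 was at -0.36 (SE 0.073, adjusted p = 0.405) without the drug and at -0.45 (SE 0.073, adjusted p = 0.135) with it on the log2 scale. In neither arm did edgeR's quasi-likelihood test call any gene (0% of genes tested), while 1126 and 747 genes (5.96% and 3.95%) had an unadjusted p under 0.05, with 4 and 2 of the 10 among them, and DESeq2 called 16 and 3 genes, Adgrf5 among them in both. The averaged call held in all 16 refits that left out 1 mouse each (adjusted p 0.00272 to 0.0161). Scaled to the endothelial identity genes instead of to all genes, the averaged value was -0.26 with an adjusted p of 0.0536.

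The promoter of Adgrf5 is shown because this gene has the smallest p of the table at 90 days. The gene lies at chr17:43360451-43459557 on the plus strand (GENCODE M21, GRCm38). The RefSeq window of 300 bases, chr17:43360181-43360480 on GRCm38.p6, holds 250 bases before and 50 bases after its first annotated start, and its end lies within a transcript. Capitals mark GGAAG on either strand, the core of sites of ETS factors, a family that endothelial genes commonly use; it occurs 5 times here and at least once in 71.4% of 32851 RefSeq promoter windows of this length.
Adgrf5: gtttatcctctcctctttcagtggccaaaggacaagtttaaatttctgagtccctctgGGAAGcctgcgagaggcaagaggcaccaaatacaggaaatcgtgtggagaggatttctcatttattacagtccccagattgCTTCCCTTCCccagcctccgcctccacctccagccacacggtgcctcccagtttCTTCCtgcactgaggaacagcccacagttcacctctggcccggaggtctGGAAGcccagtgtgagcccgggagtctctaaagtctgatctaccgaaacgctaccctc

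The 2 other surface proteins of the endothelium were lower in every G93A group mean at 90 days. Pecam1, an adhesion molecule of endothelial junctions that platelets and leukocytes also carry, was at 21.1, 23.1, 21.5 and 22.6 CPM in untreated WT mice and at 19.1, 16.6, 14.4 and 19.6 CPM in untreated G93A mice. With OKN-007 it was at 17.8, 17.9, 19.1 and 17.9 CPM in WT and at 14.3, 15.9, 15.2 and 15.3 CPM in G93A mice. The genotypes did not overlap in either arm, yet the treated WT mice were within the range of the untreated G93A mice. Averaged, Pecam1 was at -0.30 (SE 0.06, adjusted p = 0.105), and it was called by DESeq2 and by the likelihood ratio test of edgeR.

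Cdh5, the cadherin of adherens junctions, was at 14.4, 12.8, 16.7 and 15 CPM in untreated WT and 15.7, 12, 10.7 and 12.8 CPM in untreated G93A mice at 90 days. These ranges overlapped, and the averaged difference was -0.17 (SE 0.088, adjusted p = 0.771). Without overlap towards lower levels were 2 of the 10 genes in untreated mice (Adgrf5 and Pecam1) and 3 of the 10 in treated mice (also Slco1a4), where 1.2% and 1.28% of all genes tested showed that pattern.

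Among the carriers at 90 days, Slco1a4 was at 66.9, 36.7, 51.3 and 66.1 CPM in untreated WT and 47.7, 42.0, 44.1 and 39.0 CPM in untreated G93A mice. With OKN-007 it was at 56.3, 55.6, 51.2 and 56.5 CPM in WT and 36, 40.8, 51.2 and 49.3 CPM in G93A mice. One untreated WT mouse lay below all G93A mice of its arm, and in the treated arm the highest G93A and the lowest WT mouse were level at 51.2 CPM when rounded. The averaged difference was -0.33 (SE 0.109, adjusted p = 0.516). Slc2a1 ranged from 135 to 265 CPM in WT and from 138 to 239 CPM in G93A mice, and Mfsd2a from 18.2 to 40.5 and from 16.3 to 32.8 CPM, with averaged differences of -0.1 (SE 0.145) and -0.12 (SE 0.16). Neither carrier was called, and the spread within groups was larger than the differences between genotypes.

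The pumps and junction genes were not called at 90 days either. Abcb1a was at 38.0, 35.2, 39.8 and 34.0 CPM in untreated WT and 34.4, 25.7, 32.4 and 34.6 CPM in untreated G93A mice, and its averaged difference was -0.19 (SE 0.066, adjusted p = 0.551). Abcg2 ranged from 15.3 to 21.3 CPM in WT and from 14.3 to 18.8 CPM in G93A mice, a difference of -0.13 (SE 0.077, adjusted p = 0.812). Cldn5, the main claudin of the barrier, ran from 25.4 to 69.3 CPM in WT and from 33.9 to 67.3 CPM in G93A mice, and its interval of -0.47 to 0.33 on the log2 scale leaves room for sizeable change either way. For Ocln, the averaged difference was -0.15 (SE 0.08, adjusted p = 0.784).

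Together, all 10 genes had an averaged log2 fold change below 0 at 90 days, with a median of -0.161, whereas 48.7% of all genes tested were below 0 and their median was 0.003. A list of 40 other endothelial identity genes leaned the same way: 35 of 39 tested were below 0 (median -0.17) and none was called. That list was drawn up with earlier results of these data known. It was read from the same libraries, so it is no independent check. Summed over that list, the level was 692 to 734 CPM in untreated WT, 624 to 679 CPM in treated WT, 603 to 676 CPM in untreated G93A and 557 to 642 CPM in treated G93A mice. Untreated WT mice were above all other mice of that age in this sum, and the other 3 groups overlapped. Pericyte markers leaned the same way, with 10 of 12 below 0 and a median of -0.17. In bulk tissue, fewer endothelial cells, less RNA per cell and a larger share of RNA from other cells cannot be told apart.

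**Figure D2:**
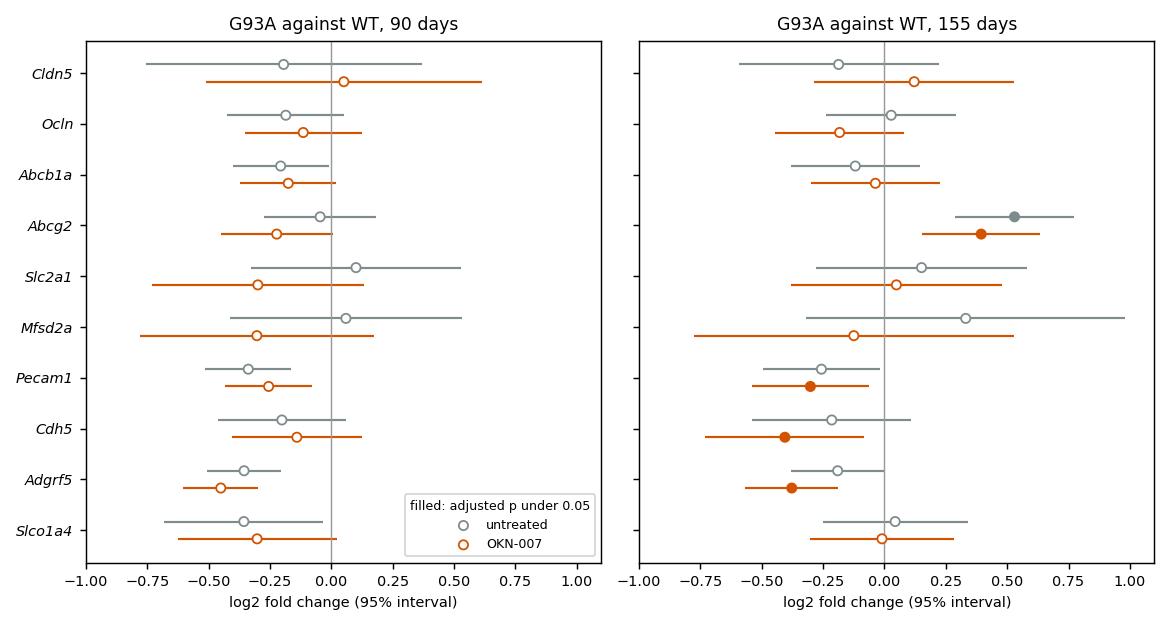
Log2 fold change of each gene in G93A against WT mice with its 95% interval, at 90 days (left) and 155 days (right), grey for untreated and orange for OKN-007 mice and filled where the adjusted p is under 0.05. At 90 days all but 3 of the 20 values lie below 0 and none is filled; at 155 days Abcg2 is filled above 0 in both arms (0.53 and 0.39), and Adgrf5, Pecam1 and Cdh5 are filled below 0 in treated mice.

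At 155 days, late in the disease, 1 of the 2 efflux pumps was higher in G93A mice. Abcg2, which exports drugs, urate and porphyrins, was at 16.2, 14.4, 18.3 and 17.4 CPM in untreated WT mice and at 20.4, 22.9, 30.9 and 20.7 CPM in untreated G93A mice. In OKN-007 mice it was at 16.6, 18.1, 16.5 and 19.0 CPM in WT and at 21, 23.4, 23.8 and 21.8 CPM in G93A mice. All 8 G93A mice were above all 8 WT mice, and G93A mouse 11 without the drug was the highest. The rise was 1.44-fold in untreated mice (95% interval 1.22 to 1.71; log2 0.53, SE 0.116, adjusted p = 0.00126) and 1.31-fold in treated mice (1.11 to 1.55; log2 0.39, SE 0.115, adjusted p = 0.00975). Abcg2 was the only member called in untreated mice, 1 of 10, where 39.5% of all genes tested were called and 32.7% did not overlap between the genotypes, so a called member was not unusual at this age. Markers of microglia and macrophages moved with it: the 11 genes summed to 165 to 216 CPM in WT and to 831 to 1470 CPM in G93A mice at 155 days, none being at 0 in a whole group, and the part of these cells in the Abcg2 value was not tested.

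The other pump, Abcb1a, did not pass the test at 155 days. It was at 47.0, 34.1, 47.0 and 34.5 CPM in untreated WT and at 32.8, 33.1, 38.5 and 43.6 CPM in untreated G93A mice, which overlapped (log2 -0.12, SE 0.126, adjusted p = 0.482). Its close paralog Abcb1b, which encodes a second P-glycoprotein in rodents, rose from 5.66 ± 0.794 to 14 ± 2.69 CPM (SD, n = 4 each) in untreated mice (log2 1.31, SE 0.145, adjusted p = 8.24e-07). With OKN-007, Abcb1b rose by 1.4 (SE 0.144, adjusted p = 2.75e-07). Reads of the paralogs can be shared or lost where their sequences match, so the split between them is uncertain.

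The 3 endothelial surface genes were called lower in G93A mice at 155 days in treated mice and averaged over treatments, but not in untreated mice. Adgrf5 was at 44.6, 40.3, 44.8 and 47.4 CPM in untreated WT and at 36.7, 36.2, 35.8 and 44.8 CPM in untreated G93A mice. With OKN-007 it was at 43.4, 51.1, 46.0 and 47.2 CPM in WT and at 31.3, 32.4, 39.7 and 37.7 CPM in G93A mice. The genotypes overlapped only through the highest untreated G93A mouse, number 12, and did not overlap in treated mice. The difference was -0.19 (SE 0.09, adjusted p = 0.103) without and -0.38 (SE 0.09, adjusted p = 0.00239) with the drug, and -0.28 (SE 0.064, adjusted p = 0.00093) averaged.

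For Pecam1 the untreated values at 155 days were 23.1, 21.8, 20.2 and 21.5 CPM in WT and 17.9, 17.1, 15.9 and 20.8 CPM in G93A mice. With OKN-007 they were 19.5, 23.7, 21.8 and 20.7 CPM in WT and 13.2, 16, 18.3 and 20.6 CPM in G93A mice. A single G93A mouse in each arm reached the WT range. The log2 difference was -0.26 (SE 0.114, adjusted p = 0.0827) untreated, -0.30 (SE 0.114, adjusted p = 0.0404) treated and -0.28 (SE 0.081, adjusted p = 0.00653) averaged.

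Cdh5 stood at 16.1, 13.4, 17.3 and 14.4 CPM in untreated WT and 11.9, 14.8, 8.53 and 17 CPM in untreated G93A mice, with wide overlap. In treated mice it was at 14.9, 19.0, 15.1 and 15 CPM in WT and at 11.6, 10.9, 12.2 and 12.6 CPM in G93A mice, which did not overlap. Its fall of 0.41 on the log2 scale in treated mice (SE 0.155, adjusted p = 0.0421) rested on single mice: the adjusted p was 0.153 without WT mouse 6, and only 1 of 8 refits without 1 mouse kept the call. In those refits Pecam1 was called in 3 of 8, with an adjusted p of 0.143 without G93A mouse 13, while Adgrf5 and Abcg2 were called in 8 of 8.

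In treated mice, then, 4 of 10 genes were called, 1 higher and 3 lower, where 41.5% of all genes tested were called, and 3 of 10 did not overlap, where 44.4% of all genes did not. Averaged over treatments 4 of 10 were called against 54.7% of all genes tested, and 1 of 10 did not overlap against 23.7%. With the Hox score of each mouse in the model, none of the 3 surface genes was called. In treated mice Adgrf5 was then at -0.25 (SE 0.117, adjusted p = 0.119), Pecam1 at -0.20 (SE 0.152, adjusted p = 0.372) and Cdh5 at -0.47 (SE 0.213, adjusted p = 0.116). Averaged over treatments they were at -0.16 (adjusted p = 0.227), -0.17 (adjusted p = 0.326) and -0.37 (adjusted p = 0.123). Abcg2 was still called in both arms (0.68, adjusted p = 0.00241, and 0.55, adjusted p = 0.0108). The differences of Adgrf5 and Pecam1 were smaller in size with the score than without it. That of Cdh5 was not, since without the score it was at -0.41 (SE 0.155) in treated mice, and its SE widened with the score. The Hox sums of the genotypes did not overlap at 155 days. Genotype and level of the cord therefore cannot be told apart at that age for any of the 10 genes, Abcg2 included, with or without the score. Nor do the calls show that treated and untreated mice differed, since none of the 10 genes was called for the interaction of genotype and treatment.

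Without that adjustment, carriers and junction genes were not called at 155 days in either arm. Slc2a1 was at 127, 126, 122 and 226 CPM in untreated WT and at 161, 130, 219 and 150 CPM in untreated G93A mice (log2 0.15, SE 0.205, adjusted p = 0.593). For Mfsd2a the values were 25.8, 23.9, 20 and 36.3 CPM and 20.9, 20.8, 69.1 and 21.7 CPM (log2 0.33, SE 0.31, adjusted p = 0.423). G93A mouse 11 carried the higher mean of Mfsd2a, and for Slc2a1 WT mouse 4 was the highest of all 8, in the group with the lower mean. With the Hox score in the model, Mfsd2a was at 0.98 (SE 0.334, adjusted p = 0.0381) in untreated and 0.60 (SE 0.349, adjusted p = 0.227) in treated mice, so it was then called in untreated mice. That fit included G93A mouse 11 and was not repeated without it. Slco1a4 averaged 49.0 ± 10.3 CPM (SD, n = 4) in untreated WT mice, and the G93A mice lay between 43.5 and 55.7 CPM, a log2 difference of 0.044 with an interval of -0.25 to 0.34. Cldn5 was at 44.1 ± 10.1 against 50.8 ± 12.8 CPM (log2 -0.19, SE 0.195, adjusted p = 0.477), and Ocln at 11.4 ± 1.38 against 11.3 ± 1.14 CPM (log2 0.027, SE 0.126, adjusted p = 0.884). Over the 10 genes the median log2 fold change was -0.046 in untreated mice, with 5 below 0, where the median of all genes was 0.00016 and 50% were below 0.

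Whether the genotype difference changed with age was tested directly over all 32 mice. For Abcg2 it was larger at 155 than at 90 days by 0.56 on the log2 scale in untreated mice (SE 0.165, adjusted p = 0.0141) and by 0.59 in treated mice (SE 0.165, adjusted p = 0.00984). It was the only one of the 10 genes called in either arm, where 21.2% and 23% of all genes tested were called. Without G93A mouse 11 at 155 days the untreated value was 0.41 (adjusted p = 0.0551). Scaled to the endothelial identity genes the values were 0.33 (adjusted p = 0.18) and 0.40 (adjusted p = 0.111). That scaling uses the summed counts of the list, which includes Cd34, a gene that rose strongly in G93A mice at 155 days. The part of Cd34 in the lower values was not tested. The lower Adgrf5 level of G93A mice did not differ detectably between the ages, by 0.15 (SE 0.117, adjusted p = 0.388) and 0.043 (SE 0.117, adjusted p = 0.837).

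Between the ages within a genotype, Abcg2 and Abcb1a rose in G93A mice and no member was called in WT mice. Averaged over treatments, Abcg2 rose in G93A mice by 0.47 (SE 0.082, adjusted p = 1.91e-05), with every mouse of 155 days above every mouse of 90 days (12.8% of all genes tested did this), and Abcb1a rose by 0.26 (SE 0.082, adjusted p = 0.00878), with an adjusted p of 0.052 without untreated mouse 12 at 155 days. These are 2 of 10 genes, where 48.8% of all genes tested were called. In WT mice the smallest adjusted p was 0.0525 for Adgrf5 (log2 -0.14, SE 0.058), and 0 of 10 genes were called by edgeR's quasi-likelihood test against 44.2% of all genes, with 3 at an unadjusted p under 0.05 (50.7% of all genes) and 1 called by DESeq2. Mice of the 2 ages are different animals, and whether their libraries were made apart is not given in the sources used here, so age and handling cannot be told apart.

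OKN-007 against no treatment was compared within each genotype and age to ask whether the drug moved these genes. No gene of the table was called by edgeR's quasi-likelihood test in any of the 4 comparisons (0% of genes tested in each). At an unadjusted p under 0.05 there were 755 genes in G93A (4.04%) and 549 in WT mice (2.94%) at 155 days and 1050 (5.56%) and 769 (4.07%) at 90 days, and DESeq2 called 2 genes in WT mice at 155 days, none of them a member, and none elsewhere. Among the 10 genes, none was at an unadjusted p under 0.05 at 155 days. At 90 days Pecam1 was at -0.28 in WT mice (SE 0.084, unadjusted p = 0.00344, adjusted p = 0.993) and at -0.20 in G93A mice (SE 0.085, adjusted p = 0.837). All 4 treated WT mice of that age were below all 4 untreated ones for Pecam1, a pattern shown by 1.02% of all genes tested. Cdh5 in WT mice (-0.26, SE 0.124, adjusted p = 0.993) and Adgrf5 in G93A mice (-0.19, SE 0.073, adjusted p = 0.837) were the other 2 at an unadjusted p under 0.05.

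Over the endothelial identity list, 33 of 39 genes in WT and 31 of 39 in G93A mice had a log2 fold change below 0 under OKN-007 at 90 days (medians -0.106 and -0.135), against 51.8% and 50.9% of all genes tested, and none was called.

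These misses do not show that the drug left the genes alone. For the pump Abcg2 the interval of the drug effect in G93A mice at 155 days was 0.811 to 1.13-fold, and for Abcb1a 0.818 to 1.18-fold. The intervals for the variable carriers were far wider, 0.483 to 1.19-fold for Mfsd2a and 0.706 to 1.28-fold for Slc2a1. The interaction of genotype and treatment was called for none of the 10 genes at either age (0% of genes tested, with 437 genes, 2.34%, and 531 genes, 2.81%, at an unadjusted p under 0.05 at 155 and 90 days, and none of the 10 among them; DESeq2 called 2 and 0 genes, none a member).

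Spread between mice of 1 group was itself patterned. Over all 32 mice, differences between groups included, the highest level was 4.24 times the lowest for Mfsd2a, 2.73 times for Cldn5 and 2.43 times for Slc2a1. It was 1.67 times for Ocln and 1.74 times for Adgrf5. The Mfsd2a value rests on untreated G93A mouse 11 at 155 days (69.1 CPM). Correlations were therefore computed over the 32 mice between deviations from the group means of log2 CPM, for all 45 pairs, with 100000 permutations of the mice within groups. Of these pairs, 16 passed a Benjamini-Hochberg p of 0.05, 10 with a positive and 6 with a negative r.

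Slc2a1 and Mfsd2a went together from mouse to mouse (Pearson r 0.847, Spearman rho 0.824, adjusted p = 0.00045 by the permutation test), with the same sign in 8 of 8 groups, and r was 0.821 without the 2 mice farthest from the median of the former. Cldn5 ran against Slc2a1 (r -0.794, rho -0.819, adjusted p = 0.00045 by the permutation test; -0.73 without the 2 farthest mice) in 8 of 8 groups. In untreated WT mice at 90 days, for example, mouse 2 had the highest Slc2a1 (265 CPM) and Mfsd2a (40.5 CPM) and the lowest Cldn5 (25.4 CPM) and Slco1a4 (36.7 CPM) of its group. Mouse 4 of the untreated WT group at 155 days had the highest Slc2a1 (226 CPM) and Mfsd2a (36.3 CPM) and again the lowest Cldn5 (34.6 CPM) and Slco1a4 (36.8 CPM). Untreated G93A mouse 11 at 155 days went another way: it had the highest Mfsd2a (69.1 CPM) and Slc2a1 (219 CPM) of its group, but also the highest Slco1a4 (55.7 CPM), with Cldn5 at 44.0 CPM in the middle of the group.

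The remaining pairs fell along similar lines. Cldn5 and Slco1a4 varied together (r 0.769, rho 0.709, adjusted p = 0.00112 by the permutation test; 0.652 without the 2 farthest mice), as did Mfsd2a and Abcg2 (r 0.74, rho 0.66, adjusted p = 0.00472; 0.594). Ocln varied with Pecam1 (r 0.72, rho 0.606, adjusted p = 0.00373 by the permutation test; 0.631) and with Cdh5 (r 0.661, rho 0.678, adjusted p = 0.00112; 0.686). Among the 5 genes Ocln, Abcb1a, Pecam1, Cdh5 and Adgrf5, a set put together after the values were seen, the 10 correlations ran from 0.234 to 0.72. Those of Adgrf5 with Cdh5, Pecam1 and Ocln did not hold at both ages. The r was -0.484 at 90 and 0.6 at 155 days with Cdh5, -0.214 and 0.779 with Pecam1, and -0.177 and 0.85 with Ocln. Between Adgrf5 and Abcb1a it was 0.506 and 0.645 (0.598 over both ages, adjusted p = 0.00775 by the permutation test). Slc2a1 and Cdh5 ran in opposite directions (r -0.632, rho -0.65, adjusted p = 0.00324 by the permutation test; -0.643). At 90 days alone r between Slc2a1 and Mfsd2a was 0.949 and between Slc2a1 and Cldn5 -0.849, and at 155 days 0.782 and -0.739. All values come from the same libraries and share their depth and scaling.

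**Figure D3:**
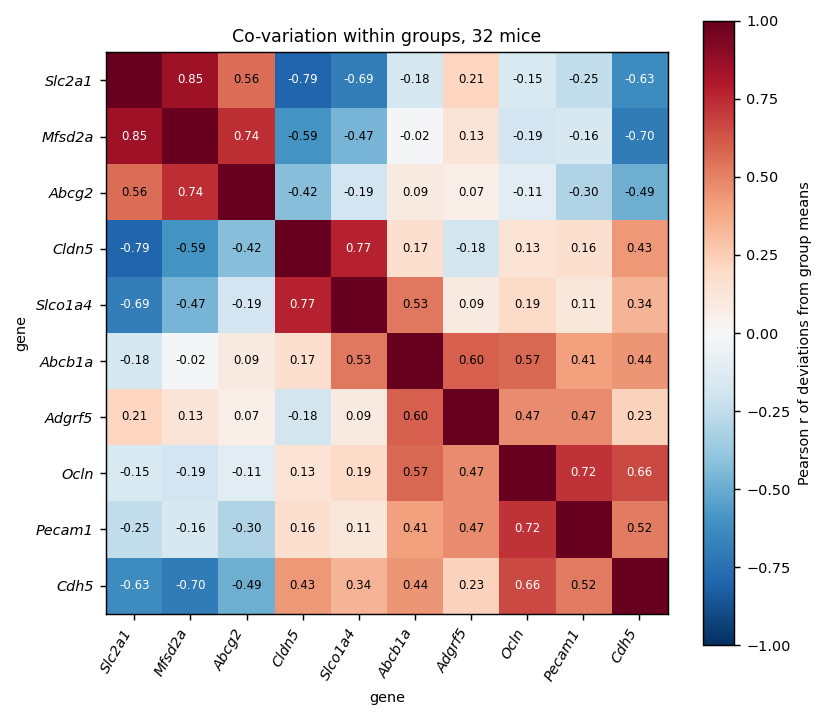
Pearson r between the 10 genes over 32 mice, computed on deviations of log2 CPM from the mean of each mouse's group, with genes on both axes and red for positive and blue for negative r. Slc2a1, Mfsd2a and Abcg2, grouped after the values were seen, form a positive block (0.556 to 0.847). Their 6 pairs with Cldn5 and Slco1a4 run from -0.794 to -0.192, weakest for Abcg2 with Slco1a4. At 90 and 155 days r was -0.849 and -0.739 for Slc2a1 with Cldn5, and -0.737 and -0.636 with Slco1a4. For Mfsd2a it was -0.923 and -0.3 with Cldn5, and -0.869 and -0.149 with Slco1a4. For Abcg2 it was -0.665 and -0.116 with Cldn5, and -0.572 and 0.199 with Slco1a4.

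**Figure D4:**
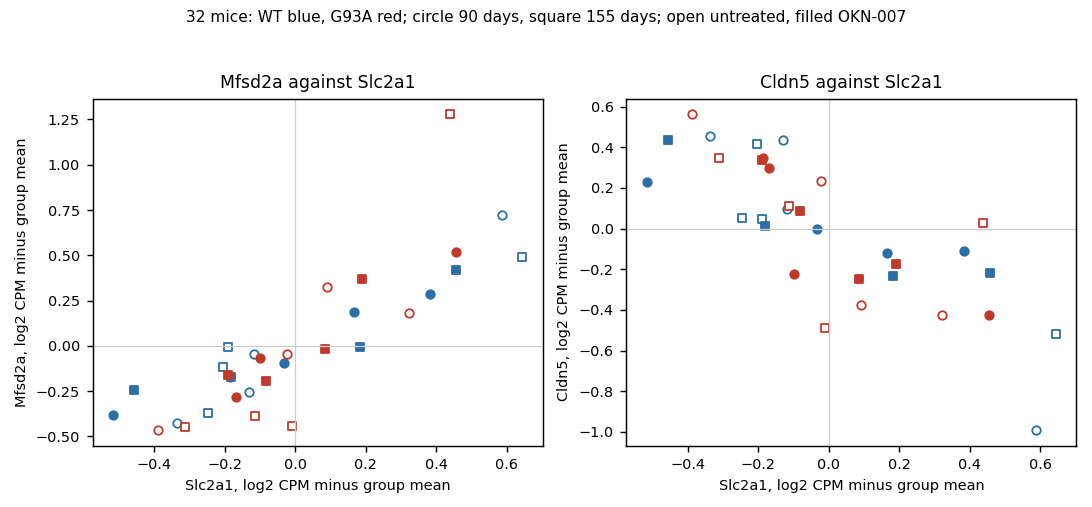
Mfsd2a (left) and Cldn5 (right) against Slc2a1, each as log2 CPM minus the mean of the mouse's group, with 1 point for each of 32 mice. Mfsd2a goes up with Slc2a1 (r 0.847) and Cldn5 goes down (r -0.794), and the point highest on the Mfsd2a axis is untreated G93A mouse 11 at 155 days.

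The promoters of these 3 genes are shown because they carry the strongest positive and the strongest negative pair. Windows of 300 bases from RefSeq on GRCm38.p6 were searched on both strands. Capitals mark ACGTG, the core of hypoxia response elements and of some E-boxes, in Slc2a1 (chr4:119108495-119108794, plus strand) and Mfsd2a (chr4:122961139-122961438, minus strand), and GGGCGG, a GC box, in Cldn5 (chr16:18776597-18776896, plus strand).
Slc2a1: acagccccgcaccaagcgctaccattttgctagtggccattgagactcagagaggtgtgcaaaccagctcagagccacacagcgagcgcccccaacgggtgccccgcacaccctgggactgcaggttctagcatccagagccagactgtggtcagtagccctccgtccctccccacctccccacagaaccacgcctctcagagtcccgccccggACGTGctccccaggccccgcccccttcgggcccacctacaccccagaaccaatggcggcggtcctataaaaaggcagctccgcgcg
Mfsd2a: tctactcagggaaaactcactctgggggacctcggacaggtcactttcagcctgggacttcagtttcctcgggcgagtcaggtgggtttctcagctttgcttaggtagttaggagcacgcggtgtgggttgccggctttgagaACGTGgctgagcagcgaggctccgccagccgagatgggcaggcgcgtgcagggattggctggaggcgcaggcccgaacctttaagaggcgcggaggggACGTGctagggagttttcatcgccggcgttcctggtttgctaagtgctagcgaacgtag
Cldn5: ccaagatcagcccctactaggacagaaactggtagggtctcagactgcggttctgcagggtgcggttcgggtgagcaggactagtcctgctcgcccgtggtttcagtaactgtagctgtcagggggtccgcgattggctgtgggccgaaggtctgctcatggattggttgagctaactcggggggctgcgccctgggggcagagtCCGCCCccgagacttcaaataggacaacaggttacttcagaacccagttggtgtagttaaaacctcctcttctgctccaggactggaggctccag
ACGTG has 1 match in the Slc2a1 window and 2 in that of Mfsd2a, and is found in 19.6% of 32851 windows in all. The 10 windows of the 6 other genes that have one hold no match, which is little to go on at that share. Of those, the Abcb1a window (chr5:8566841-8567140) lies well before the start of that gene in GENCODE M21 (chr5:8660077). GGGCGG is found in 35.7% of all windows. It has 2 matches, not capitalized, in that of Slc2a1. Matches also lie in the windows of Ocln (1 each) and in windows of Abcg2 (2 and 4). RefSeq windows were given for 8 of the 10 genes, and Pecam1 and Cdh5 are named only. A match of letters is not a binding site, and no factor was measured here.

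By position, Slc2a1 (chr4:119108711-119137983) and Mfsd2a (chr4:122946850-122961188) lie on the same chromosome, on opposite strands, and the other genes lie elsewhere: Cldn5 at chr16:18776847-18778262, Ocln at chr13:100496507-100552718, Abcb1a at chr5:8660077-8748575, Abcg2 at chr6:58584523-58695676, Pecam1 at chr11:106654217-106750628, Cdh5 at chr8:104101625-104144511 and Slco1a4 at chr6:141805440-141856199. Abcg2 and Slco1a4 also share a chromosome, on opposite strands, and their r over the 32 mice was -0.192. Coordinates are those of GENCODE M21 on GRCm38, matched by gene identifier.

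Genes outside the 10 whose pattern over mice was most like the mean of their standardized deviations were L3mbtl3 (r 0.814), B3galt2 (0.757), Nom1 (0.729), Ptch1 (0.71), Fbxl5 (0.704), Efr3b (0.695), Osbpl9 (0.694), Map3k21 (0.686), Ipo9 (0.679) and Castor2 (0.675), the first 10 of 19829 genes compared over 32 mice, where the 95th percentile of r was 0.435. That mean stood for the members unevenly: the r of a member with the mean of the other 9 ran from -0.245 for Slc2a1 to 0.755 for Abcb1a.

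Other genes of the vessel wall were read from lists of junction partners, carriers, endothelial identity genes, barrier signals, activation genes and pericyte markers. At 90 days none of these genes was called in the averaged comparison. At 155 days in untreated mice, 9 of 20 tested junction partners rose and 2 fell, where 21.3% of all genes rose and 18.2% fell, and their median was 0.245. F11r, the junctional adhesion molecule A that platelets and leukocytes carry as well, rose by 1.73 (SE 0.137, adjusted p = 9.73e-09). Tjp3 rose by 1.24 (SE 0.432, adjusted p = 0.0285) and Ctnna1, alpha-catenin, by 0.695 (SE 0.0737, adjusted p = 4.99e-07). The scaffold proteins cingulin (Cgn, -0.63, SE 0.149, adjusted p = 0.00228) and paracingulin (Cgnl1, -0.63, SE 0.144, adjusted p = 0.00194) fell. With OKN-007 the counts were 9 and 3, where 23.3% of all genes tested rose and 18.2% fell.

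Of 30 further transporters and carriers 8 rose and 4 fell in untreated mice, with a median of -0.016. Of all genes tested, 21.3% rose and 18.2% fell. Ager, the receptor RAGE, rose by 1.81 (SE 0.334, adjusted p = 0.000288), Slco2b1 by 1.69 (SE 0.121, adjusted p = 2.79e-09) and Abcb1b as given above. Spock2 (-0.72), the transferrin receptor Tfrc (-0.55) and Slc35f2 (-0.41) fell. In treated mice 9 rose and 4 fell, where 23.3% of all genes tested rose and 18.2% fell.

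Endothelial identity genes split at 155 days. Of 39 tested, 5 rose and 4 fell in untreated mice and 6 rose and 5 fell in treated mice, with medians of -0.111 and -0.269, and averaged over treatments 7 rose and 13 fell. Of all genes tested, 23.3% rose and 18.2% fell in treated mice, and 28.8% and 25.8% averaged. Cd34, a sialomucin of endothelial and other cells, went from 13.4 ± 0.695 to 54.4 ± 9.49 CPM (SD, n = 4 each) in untreated mice (log2 2.04, SE 0.1, adjusted p = 2.96e-11). Tm4sf1 rose by 2.11 (SE 0.176, adjusted p = 2.06e-08) and the ETS factor Fli1, which microglia share with endothelium, by 1.43 (SE 0.129, adjusted p = 5.89e-08). The factor Mecom (-0.54, adjusted p = 0.0345), the membrane protein Itm2a (-0.43, adjusted p = 0.0445) and the receptor Tie1 (-0.43, adjusted p = 0.0359) fell. Summed, the list was at 660 to 714 CPM in WT and 662 to 767 CPM in G93A mice of that age.

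Of 22 genes of Wnt and Norrin signalling 4 rose and 1 fell in untreated mice, with a median of 0.00014. Of all genes tested, 21.3% rose and 18.2% fell, so calls in this list were not unusual. The ligands Wnt7b (0.77, SE 0.128, adjusted p = 0.000101) and Ndp (0.56, SE 0.139, adjusted p = 0.00344) and the coreceptor Lrp5 (0.77, SE 0.112, adjusted p = 2.51e-05) rose, and Nkd1, a feedback inhibitor, fell by 0.415 (SE 0.118, adjusted p = 0.00878). In treated mice 5 rose and 1 fell, where 23.3% of all genes tested rose and 18.2% fell.

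Permeability and activation genes had the highest median of these lists of the vessel wall. Of 27 tested, 15 rose and 4 fell in untreated mice with a median of 0.811, and 16 and 4 in treated mice. Of all genes tested, 21.3% rose and 18.2% fell in untreated mice, and 23.3% and 18.2% in treated mice. Ch25h, a cholesterol hydroxylase, rose by 5.81 (SE 0.402, adjusted p = 1.69e-09) and Esm1, endocan, by 3.86 (SE 0.527, adjusted p = 1.18e-05), both on the log2 scale. Mmp9 (-1.61), the vascular ligand Apln (-0.95) and the chemokine receptor Ackr1 (-0.42) fell. Several genes of this list are also made by microglia, macrophages or astrocytes, whose marker sums were higher in all 8 G93A mice of that age. Pericyte markers had 7 higher and 1 lower of 12 in untreated mice, led by Anpep (2.22, SE 0.278, adjusted p = 4.32e-06), which myeloid cells also carry, with Cspg4 (0.87) and Notch3 (0.75) behind it and the channel subunit Abcc9 lower (-0.35, adjusted p = 0.0476). In treated mice 5 pericyte markers rose and 2 fell.

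**Figure D5:**
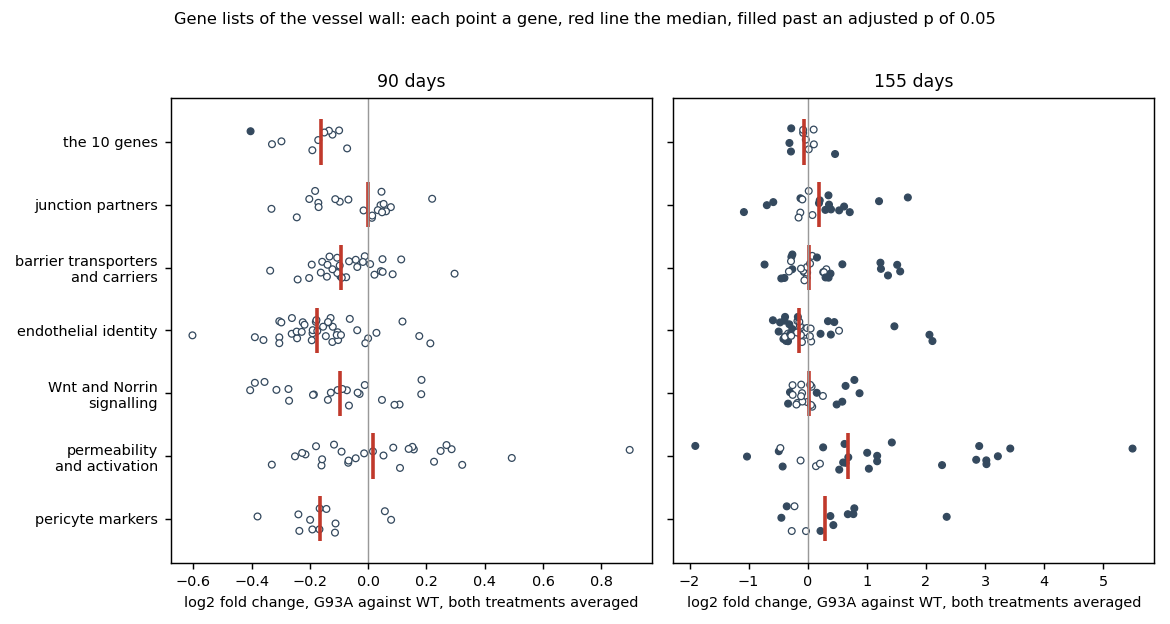
Log2 fold change in G93A against WT mice averaged over treatments, for the 10 genes and 6 lists of the vessel wall at 90 days (left) and 155 days (right; wider axis), with a point per gene, filled past an adjusted p of 0.05, and a red line at the median. At 90 days 1 point is filled, Adgrf5, and the medians of the 10 genes (-0.161) and of endothelial identity (-0.17) lie below 0; at 155 days the list of permeability and activation has the highest median (0.686).

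Markers of several other cell types moved with genotype at 155 days, where 21.3% of all genes tested rose and 18.2% fell in untreated mice. In untreated mice 8 of 9 astrocyte markers (Gfap by 2.4, Aqp4 by 1.28, Agt by 1.27) and 9 of 11 microglia and macrophage markers (Itgax by 7.25, Cd68 by 4.56, C1qa by 3.55) rose, and all 9 neuron markers fell (Nefl -1.1, Nefm -1.05, Slc17a6 -0.91). Smooth muscle markers rose in 4 of 6 (Mylk by 2.45, Tagln by 2.23, Cnn1 by 1.04) and fibroblast markers in 2 of 5 (Col1a1 by 0.674, Col1a2 by 0.381). Oligodendrocyte markers rose in 1 of 6 (Mag by 0.247) and blood markers in 2 of 9 (Pf4 by 1.39, Itga2b by 0.684). These last counts were near the share of all genes that rose. Of 5 liver markers none was called, and 4 of 8 caudal Hox genes fell (Hoxc11 by -2.77 and Hoxd11 by -2.5 on the log2 scale, and Hoxc12 among them). Blood markers, a gauge of blood left in the vessels, summed to 55.9 to 103 CPM in G93A and 63.1 to 158 CPM in WT mice of that age. The part of these shifts in the members' values was not tested.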

How the data were processed

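Total RNA from the spinal cord was extracted with TRIzol, and stranded poly(A) libraries (TruSeq) were sequenced on a NextSeq 500. The deposited values are raw counts per gene that the authors made from their reads, with no normalization, for 32 mice and 42524 genes. The study describes trimming with Trimmomatic, alignment with STAR to GRCm38 and counting with HTSeq, whereas the submitters' processing notes name FastQC, STAR, featureCounts and edgeR and the builds GRCm39, mm39 and hg38. The sources disagree, and 820 gene identifiers have a form that no gene paired with GENCODE M21 has. Names, exon lengths and coordinates come from GENCODE M21 by gene identifier, which paired 96.9% of genes, and the rest held 0.0552% of counts.

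Groups were taken from the sample labels. Counts were scaled by TMM, genes were filtered with filterByExpr, and edgeR 4.0.16 (R 4.3.3) quasi-likelihood tests were fitted to 16 mice as 4 groups at each age, and to 32 mice as 8 groups for comparisons of age. P-values were adjusted by the Benjamini-Hochberg method over all genes tested, with a threshold of 0.05. Likelihood ratio tests, DESeq2 1.42.0, other scalings and filters, covariates and refits without 1 mouse were alternatives, and the code was tested on simulated counts. No 2 mice of a group had counts within sampling noise of each other (smallest chi-square per gene 3.57). The labels do not say that mice of a group were handled apart, so p-values cover the spread between these mice only.

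All 10 genes are named. Of each other list, up to 3 genes with the highest and up to 3 with the lowest change are named among those called in untreated mice at 155 days, and the 10 genes most like the members' mean pattern are given. A further gene that this rule names is not reported here. The members and the lists were chosen with earlier results of these data known.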

Additional observations from a re-analysis of the deposited data

Results flagged for a closer look

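In 7 of 80 groups of 4 values (10 genes in 8 groups) the highest or lowest mouse stood apart from the other 3, where chance gives about 4. Mfsd2a was at 69.1 CPM in untreated G93A mouse 11 at 155 days, with the next at 21.7 CPM. Slc2a1 was at 226 CPM in untreated WT mouse 4 at 155 days, with the next at 127 CPM, and at 216 CPM in treated G93A mouse 13 at 90 days, with the next at 147 CPM. Among the surface genes, Adgrf5 was at 44.8 CPM in untreated G93A mouse 12 at 155 days against 36.7 CPM for the next, Cdh5 at 19.0 CPM in treated WT mouse 6 at 155 days against 15.1 CPM, and Pecam1 at 19.1 CPM in treated WT mouse 7 at 90 days against 17.9 CPM. Abcg2 was at 14.6 CPM in untreated G93A mouse 9 at 90 days, where the next mouse was at 18.3 CPM.

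The genotype difference of Abcg2 was larger at 155 than at 90 days, by 0.563 in untreated mice (SE 0.165, adjusted p = 0.0141, edgeR quasi-likelihood test) and by 0.587 in treated mice (SE 0.165, adjusted p = 0.00984) on the log2 scale. Both arms rest on different mice. Without untreated G93A mouse 11 at 155 days the former was 0.412 (adjusted p = 0.0551). Scaled to the endothelial identity genes the values were 0.331 (adjusted p = 0.18) and 0.395 (adjusted p = 0.111), so neither was then called. The summed list behind that scaling includes Cd34, which rose in G93A mice at 155 days, and the part of Cd34 was not tested.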

How the results depend on the processing

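No member changed direction past the threshold under any setting, and of the values of single genes 3875 kept their side of it, 59 newly passed it and 26 lost it. The cause was not tested where calls moved. Of the 10 genes, 1 was called in untreated mice at 155 days, but 2 at an adjusted p of 0.10 (also Pecam1), 2 with the Hox score in the model (also Mfsd2a), 3 scaled to the endothelial identity genes and 3 with all 32 mice in 1 fit. Leaving out 1 mouse gave 1 to 3, with 3 without G93A mouse 12 (Pecam1 adjusted p = 0.0278, Adgrf5 adjusted p = 0.0169). In treated mice 4 became 1 with the Hox covariate and 2 to 4 without 1 mouse, 2 each without WT mice 6, 7 and 8 and G93A mice 13 and 14. Averaged, 4 became 2 with the Hox covariate and 3 to 4 without 1 mouse (Cdh5 adjusted p = 0.0573 without treated WT mouse 6).

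At 90 days the count of 0 became 1 (Adgrf5) by DESeq2 and the likelihood ratio test in both arms, and 1 without a filter in treated mice. Averaged, 1 became 2 by both tools, 0 under endothelial scaling and 1 to 2 without 1 mouse (Pecam1 adjusted p = 0.0315 without untreated G93A mouse 12). Over all genes 5 calls became 66 by DESeq2, 64 by the likelihood ratio test, 110 without a filter, 21 with 32 mice in 1 fit, 15 at an adjusted p of 0.10, 11 with an Fkbp5 covariate added after seeing the data and 199 under endothelial scaling, of which 99.0% were higher against 3 of 5. Endothelial scaling put the median of all genes at 0.144 there, from 0.0032, and at -0.123 in untreated mice at 155 days, from 0.00015, where 35.4% of calls were then higher against 54.0%, with 46.0% against 56.1% in treated mice and 38.9% against 52.7% averaged. The Hox covariate cut the calls over all genes at 155 days from 7378 to 4895, from 7747 to 5050 and from 10211 to 6386.

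The difference between ages of the genotype change, called for 1 member in each arm, was called for 0 in both under endothelial scaling (Abcg2 0.331, adjusted p = 0.18 untreated), and for 0 to 2 without 1 mouse in untreated mice, with 2 without WT mouse 2 at 90 days (also Slco1a4). Between ages in WT mice, 0 became 1 by DESeq2, with RLE factors, library size, a minimum of 10 counts, the Hox covariate or only the groups compared, 2 with upper-quartile factors, 3 at an adjusted p of 0.10, 4 with the Fkbp5 covariate and 0 to 3 without 1 mouse, with 3 without untreated mouse 4 at 155 days. In G93A mice 2 became 5 with the Fkbp5 covariate and 1 to 3 without 1 mouse.

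Mouse numbers repeat between the ages only. They share no mice, and deviations of same-numbered mice correlated with r over 0.1 in 2 of 16 cases (-0.215 to 0.134). With the replicate number as a block, 1 member was called between ages in WT mice (Abcb1a, 0.162, adjusted p = 0.0312), 3 in G93A mice and 1 in each test of the difference between ages. Depth did not limit any member, but with 4 mice a group the intervals of Mfsd2a, Slc2a1 and Cldn5 stayed wide.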

Other observations

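Genes chosen after the values were seen went with the carriers from mouse to mouse, over 32 mice and as deviations from group means. Fkbp5, a chaperone partner that glucocorticoids induce, went with Mfsd2a (r 0.937) and Slc2a1 (r 0.871). Klf9 and Zbtb16, also known as glucocorticoid-responsive genes, went with Slc2a1 (r 0.933 and 0.93), and Klf9 ran against Cldn5 (r -0.769). The genes most like single members out of the whole table were Mxd4 for Slc2a1 (r 0.969), Smox for Mfsd2a (r 0.96) and F3 for Abcg2 (r 0.828). For Ocln it was L3mbtl3 (r 0.889), for Cldn5 Mir9-3hg (r 0.875), for Cdh5 Bcor (r 0.857) and for Slco1a4 Foxc1 (r 0.805). For Pecam1 it was Cables2 (r 0.776), for Adgrf5 Map7d2 (r 0.77) and for Abcb1a Tbp (r 0.769). Fkbp5 was at 115 CPM in untreated G93A mouse 11 at 155 days, at 54.7 CPM in untreated WT mouse 2 at 90 days and at 53.5 CPM in untreated WT mouse 4 at 155 days, the same mice that had the highest Mfsd2a of their groups, and its lowest level in any mouse was 13.4 CPM. These values come from libraries that share depth and scaling, and no hormone level or time of death was available for this work. With Fkbp5 as a covariate Abcg2 was still called in untreated mice at 155 days (log2 0.449, adjusted p = 0.000384).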
